A study of Homo sapiens with 6 samples.

Results

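Transcript levels of the CXC chemokines CXCL1, CXCL2, CXCL3, CXCL5, CXCL6, CXCL8 and CXCL16, the CC chemokine CCL20 and the adhesion molecule ICAM1 were examined in sorafenib-resistant Huh7 cells treated with fostamatinib. The 9 genes were taken by symbol, and all 9 were found among the 16305 genes measured. The human liver cancer line Huh7 was the parent of the cells used here (Huh7SR in the labels, the resistant pool Huh7-R in the study's text), which were selected by long exposure to the kinase inhibitor sorafenib. Both groups share this history, with sorafenib withdrawn for some days before experiments, so parental Huh7 cells are not part of the comparison. One group of 3 samples received fostamatinib, an inhibitor of spleen tyrosine kinase (SYK), at 2 µM for 24 h. The other group of 3 samples received DMSO, the vehicle, for 24 h, and the labels write 2 µM for DMSO as well. The paper did not detect SYK protein in Huh7 cells. At another dose and time it reports that the drug lowered phosphorylation of ERK, AKT, STAT3, EGFR and JNK. A single resistant line was profiled, and no source states that the 3 samples per group came from separate cultures, so the p-values cover the spread between these samples, which may be technical.

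The CXC chemokines CXCL1, CXCL2, CXCL3, CXCL5, CXCL6 and CXCL8 are small secreted proteins that draw neutrophils through the receptor CXCR2, and CXCL6 and CXCL8 also act on CXCR1. CCL20 draws dendritic cells and T cells that carry CCR6, CXCL16 is made as a membrane protein that binds CXCR6 and can be cut from the surface by ADAM10, and ICAM1 is the surface ligand of the leukocyte integrins built from ITGAL or ITGAM with ITGB2. In hepatocytes and hepatoma cells these genes are known for induction by interleukin-1 and tumour necrosis factor through NF-kB, together with AP-1 and C/EBP factors, and many of their mRNAs carry AU-rich elements that bind decay factors. Only RNA was measured here, so nothing below is a measurement of secreted or surface protein.

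The promoters are shown first, because 7 of 8 of them hold the same run of 9 bases. RefSeq promoter sequences (GRCh38.p14) were given for 8 of the 9 genes, all but CXCL16, and each printed stretch matched GRCh37 exactly at 1 place. The stretches are the last 120 bases before the RefSeq start, or the last 200 for ICAM1, written 5′ to 3′ on the strand of the gene. Capitals mark GGAATTTCC on either strand, which resembles the kappa B motif bound by NF-kB, and TATAAA on the strand of the gene. They lie at chr4:74734990-74735109 (+ strand) for CXCL1, chr4:74964913-74965032 (- strand) for CXCL2, chr4:74904407-74904526 (- strand) for CXCL3, chr4:74864395-74864514 (- strand) for CXCL5, chr4:74702275-74702394 (+ strand) for CXCL6, chr4:74606166-74606285 (+ strand) for CXCL8, chr2:228678438-228678557 (+ strand) for CCL20 and chr19:10381596-10381795 (+ strand) for ICAM1. In the lifted GENCODE version 44, a later release than the version 22 used for counting, the gene begins further upstream than the RefSeq start for CXCL2 (by 1 base), CXCL3, CXCL6, CXCL8, CCL20 and ICAM1, so part or all of those windows lies inside the annotated gene.
CXCL1: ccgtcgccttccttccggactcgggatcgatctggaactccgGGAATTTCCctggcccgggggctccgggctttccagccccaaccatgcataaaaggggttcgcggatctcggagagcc
CXCL2: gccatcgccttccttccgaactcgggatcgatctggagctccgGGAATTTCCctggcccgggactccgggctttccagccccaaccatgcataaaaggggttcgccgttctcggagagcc
CXCL3: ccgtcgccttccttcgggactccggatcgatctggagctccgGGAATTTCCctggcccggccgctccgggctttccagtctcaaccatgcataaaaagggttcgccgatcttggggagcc
CXCL5: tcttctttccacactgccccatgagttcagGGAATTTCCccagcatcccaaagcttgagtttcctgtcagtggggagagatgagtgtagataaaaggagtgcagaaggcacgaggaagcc
CXCL6: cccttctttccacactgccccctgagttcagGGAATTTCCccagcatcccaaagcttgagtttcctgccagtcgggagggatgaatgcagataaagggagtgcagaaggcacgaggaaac
CXCL8: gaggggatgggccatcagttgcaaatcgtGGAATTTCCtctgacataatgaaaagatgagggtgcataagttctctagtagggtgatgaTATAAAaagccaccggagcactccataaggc
CCL20: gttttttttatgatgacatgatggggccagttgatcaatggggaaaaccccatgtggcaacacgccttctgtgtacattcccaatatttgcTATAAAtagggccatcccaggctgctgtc
ICAM1: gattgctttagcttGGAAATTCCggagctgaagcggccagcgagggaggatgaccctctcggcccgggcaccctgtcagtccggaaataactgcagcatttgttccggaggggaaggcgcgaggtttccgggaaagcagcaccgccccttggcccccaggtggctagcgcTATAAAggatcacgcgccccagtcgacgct

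In CXCL1, CXCL2 and CXCL3 the run GGAATTTCC began 78, 77 and 78 bases before the start, in CXCL5 and CXCL6 90 and 89 bases before it, and in CXCL8 91 bases before it. In ICAM1 it lay on the opposite strand, from 186 to 178 bases before the start, and in CCL20 it was not found in the 250 bases searched. Among the 35116 promoters of the table, in which a gene can have several, 145 (0.413%) held GGAATTTCC in the same 250 bases on either strand. The motif was chosen after these promoters had been read, so its count is a description. A kappa B consensus that must begin with GGG matched on either strand in CXCL1, CXCL2, CXCL3, CXCL5, CXCL6 and CCL20. This was 6 of 8, against 9.96% of all promoters. In the CXC genes among these it overlaps GGAATTTCC, whereas CXCL8 and ICAM1 hold GGAATTTCC without a match to it. TATAAA on the strand of the gene was found in CXCL8, CCL20 and ICAM1, 3 of 8 against 6.80%, and the AP-1 motif TGANTCA on either strand was found in CXCL8 alone, 1 of 8 against 6.57%. Over 250 bases, CXCL5 and CXCL6 were 85.3% identical, CXCL1 and CXCL3 81.4%, CXCL2 and CXCL3 73.4% and CXCL1 and CXCL2 70.1%, while the other pairs ranged from 43.9% to 54.2%. The promoters thus fall into a CXCL1, CXCL2 and CXCL3 group and a CXCL5 and CXCL6 pair, with CXCL8, CCL20 and ICAM1 each apart.

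Counts of reads on the 16305 genes ranged from 13303451 to 15272737 per sample, and 13287 genes had at least 10 reads in every sample. The values are log2 CPM, the log2 of counts scaled to a common library size. Differences are given as fostamatinib minus DMSO on the log2 scale, from limma with Benjamini-Hochberg adjustment over all 16305 genes. A gene was called changed at an adjusted p under 0.05. The labelled hepatoma origin was checked against markers. All 11 hepatocyte and hepatoma markers were measured, with summed levels of 9578 to 9964 CPM in DMSO and 9861 to 10100 CPM after fostamatinib, and 9 of them rose and 2 (KRT8 and KRT18) fell. Over all genes 23.3% rose and 24.5% fell. Of the markers of cells that could bring in chemokine transcripts, 2 of 8 myeloid genes were measured at a summed 9.83 to 11.2 CPM in DMSO and 9.67 to 11.7 CPM after fostamatinib, 1 of 6 lymphoid genes at 6.65 to 8.74 and 4.41 to 5.51 CPM, 1 of 5 endothelial genes at 6.13 to 6.96 and 8.76 to 9.93 CPM, and 5 of 7 fibroblast genes at 298 to 306 and 308 to 312 CPM. PTPRC, CD3E, CDH5 and VWF, which define leukocytes, T cells and endothelium, were not among the 16305 genes. Other markers of the same cells were measured. The lymphoid gene was CD3D, which fell by 0.64 (SE 0.14), from 120, 101 and 120 reads to 70, 78 and 58. The endothelial gene was PECAM1, which rose by 0.51 (SE 0.12), from 84, 97 and 103 reads to 120, 141 and 120. The myeloid genes CD14 and LYZ did not pass the test. Among the fibroblast genes, LUM fell by 0.40 (SE 0.045), and COL1A2 and PDGFRB rose by 0.37 (SE 0.042) and 0.95 (SE 0.20). COL1A1 and COL3A1 did not pass. In a bulk sample, fewer cells that express a gene and less RNA per cell cannot be told apart.

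Of the 9 genes, 8 fell after fostamatinib and 0 rose, in a comparison that called 47.8% of all genes changed, 24.5% lower and 23.3% higher. CXCL16 did not pass the test. All 8 that fell did so by more than 2-fold, which 3.29% of all genes did, and in each of the 8 every fostamatinib sample lay below every DMSO sample, as was the case for 27.4% of all genes. Over all genes the groups did not overlap in either direction for 54.1%, and fostamatinib was the higher group for 26.8%. The median difference of the 9 genes was -1.50, beside 0.0015 over all genes. CXCL2, CXCL6 and ICAM1 also stand in a list that the study drew in part from these same samples. To that extent their direction there is not independent evidence. The study's list also used a fostamatinib signature of HepG2 cells and its own resistance signature. For ICAM1 the paper reports a rise in the resistant cells and a fall after fostamatinib in both Huh7-R and HepG2 cells.

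**Figure D1:**
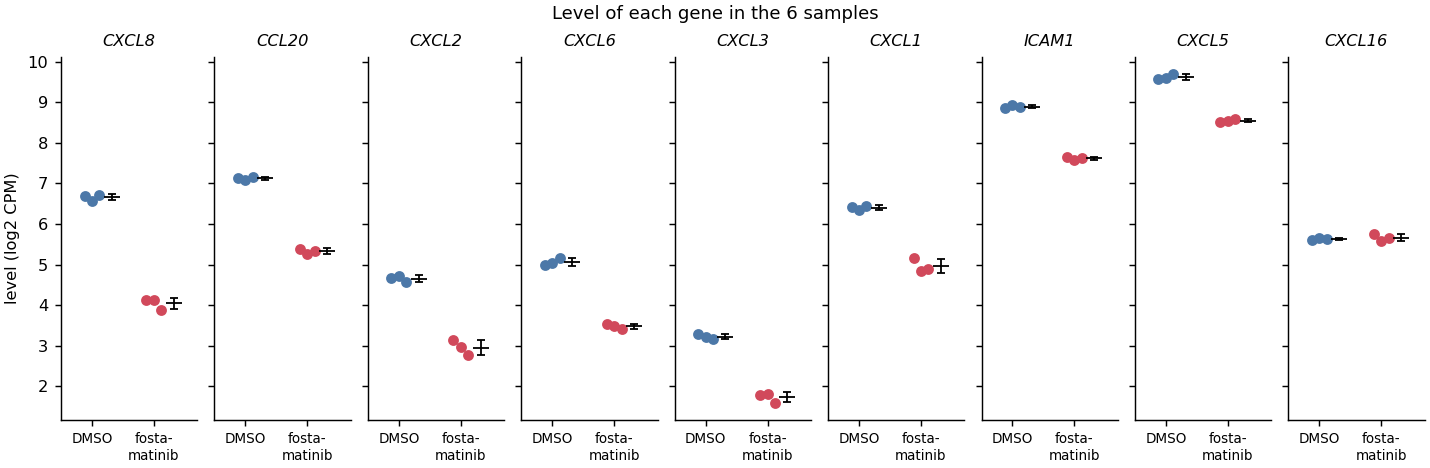
Level of each of the 9 genes in log2 CPM (vertical axis) in the 3 DMSO samples (blue) and the 3 fostamatinib samples (red), with the mean and SD of each group in black. In 8 panels all fostamatinib samples lie below all DMSO samples, and in the CXCL16 panel the groups overlap.

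CXCL8 (ENSG00000169429, chr4:74606236-74609433, + strand of GRCh37), interleukin-8, showed the largest difference of the 9 genes. Its level was 6.70, 6.57 and 6.71 log2 CPM with DMSO and 4.13, 4.12 and 3.88 log2 CPM with fostamatinib. The groups lay 2.44 apart at their nearest samples, many times the spread within either. CXCL8 had 1431, 1448 and 1554 reads in DMSO against 240, 247 and 195 reads with the drug. The difference was -2.62 (SE 0.068, adjusted p = 1.33e-26), which left 16.3% of the DMSO level, and CXCL8 held place 47 of the 16305 genes when ordered from the largest fall.

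The growth-regulated chemokines CXCL1, CXCL2 and CXCL3, whose genes are close copies, fell by similar amounts from different levels. CXCL1 (ENSG00000163739, chr4:74735110-74737025, + strand) was at 6.41, 6.33 and 6.45 log2 CPM in DMSO and at 5.16, 4.83 and 4.90 after fostamatinib, a difference of -1.44 (SE 0.067, adjusted p = 2.73e-19). CXCL2 (ENSG00000081041, chr4:74962757-74964913, - strand) was at 4.66, 4.73 and 4.56 log2 CPM in DMSO and at 3.13, 2.95 and 2.76 after fostamatinib, a difference of -1.71 (SE 0.10, adjusted p = 2.75e-16). CXCL3 (ENSG00000163734, chr4:74902306-74904524, - strand) was at 3.29, 3.22 and 3.16 log2 CPM in DMSO and at 1.79, 1.80 and 1.58 after fostamatinib, a difference of -1.50 (SE 0.15, adjusted p = 9.00e-11). In none of the 3 genes did the groups overlap, and fostamatinib sample 1 was the highest of its group for CXCL1 and CXCL2. CXCL3 rested on the fewest reads of the 9 genes, 132 to 142 in DMSO and 39 to 49 after fostamatinib, and had the largest standard error.

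Because the 3 genes resemble each other, reads could be split between them. Of the 50-base windows of the exons, 4.57% in CXCL1, 13.4% in CXCL2 and 6.01% in CXCL3 occurred exactly in another of the 3 genes, which leaves their separate values uncertain to that extent. With the reads of the 3 genes summed, the difference was -1.50 (SE 0.060, adjusted p = 3.89e-21), a value that does not depend on how reads were divided among them.

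CXCL5 and CXCL6, another pair of close relatives, also fell, CXCL5 from the highest level of the 9 genes. CXCL5 (ENSG00000163735, chr4:74861359-74864394, - strand), known as an epithelial-derived neutrophil attractant, was at 9.57, 9.60 and 9.71 log2 CPM in DMSO and at 8.52, 8.55 and 8.59 after fostamatinib, a difference of -1.07 (SE 0.037, adjusted p = 6.80e-23). The interval of the difference reached from -1.15 to -0.999 (95%), so CXCL5 stood at the 2-fold limit. In limma's treat test, which asks for more than a 2-fold change, it did not pass (adjusted p = 0.879). CXCL6 (ENSG00000124875, chr4:74702357-74714781, + strand), the granulocyte chemotactic protein, was at 4.99, 5.04 and 5.16 log2 CPM in DMSO and at 3.54, 3.48 and 3.41 after fostamatinib, a difference of -1.59 (SE 0.083, adjusted p = 9.10e-18). Reads on CXCL5 numbered 10459 to 12464 in DMSO and 5052 to 5341 after fostamatinib, against 438 to 531 and 140 to 159 on CXCL6. No window of 50 bases was shared between the pair, and in CXCL6 2.31% of windows occurred in the pseudogene PPBPP1. With the reads of both genes summed, most of them from CXCL5, the difference was -1.09 (SE 0.037). Of the 2436 exon bases of CXCL5, 422 lie opposite a long non-coding RNA gene that was not among the genes measured.

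CCL20 (ENSG00000115009, chr2:228670455-228682280, + strand), which lies on another chromosome, had the second largest difference. Its level was 7.14, 7.08 and 7.15 log2 CPM in DMSO and 5.39, 5.26 and 5.33 after fostamatinib, from 1948, 2059 and 2116 reads and from 578, 544 and 534 reads. The groups lay 1.68 apart at their nearest samples. The difference was -1.80 (SE 0.052, adjusted p = 4.01e-25), which left 28.8% of the DMSO level.

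ICAM1 (ENSG00000090339, chr19:10381769-10397291, + strand) was at 8.86, 8.94 and 8.88 log2 CPM in DMSO and at 7.65, 7.58 and 7.63 after fostamatinib. It fell by 1.27 on the log2 scale (SE 0.038, adjusted p = 9.45e-25), which left 41.3% of the DMSO level, with no overlap between the groups. Of its 3448 exon bases, 815 lie opposite the antisense gene ICAM4-AS1, which was not among the genes measured. The strand setting of the counting is not given in the sources used here, so reads of that RNA cannot be told apart from those of ICAM1 over those bases.

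CXCL16 (ENSG00000161921, chr17:4636828-4643223, - strand) was the 1 gene of the 9 that did not pass the test. Its level was 5.60, 5.64 and 5.62 log2 CPM in DMSO and 5.76, 5.57 and 5.65 after fostamatinib, so that the DMSO samples lay within the range of the fostamatinib samples. The difference was 0.040 (SE 0.059, adjusted p = 0.611), with a 95% interval from -0.080 to 0.16, which excludes a fall as large as that of any of the other 8. Without fostamatinib sample 1 it was -0.0081. Exons of CXCL16 share 76 bases with MED11 and 96 with ZMYND15 on the opposite strand, of which MED11 rose by 0.40 (SE 0.11, adjusted p = 0.0019) and ZMYND15 did not pass (0.41, SE 0.35, adjusted p = 0.358).

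**Figure D2:**
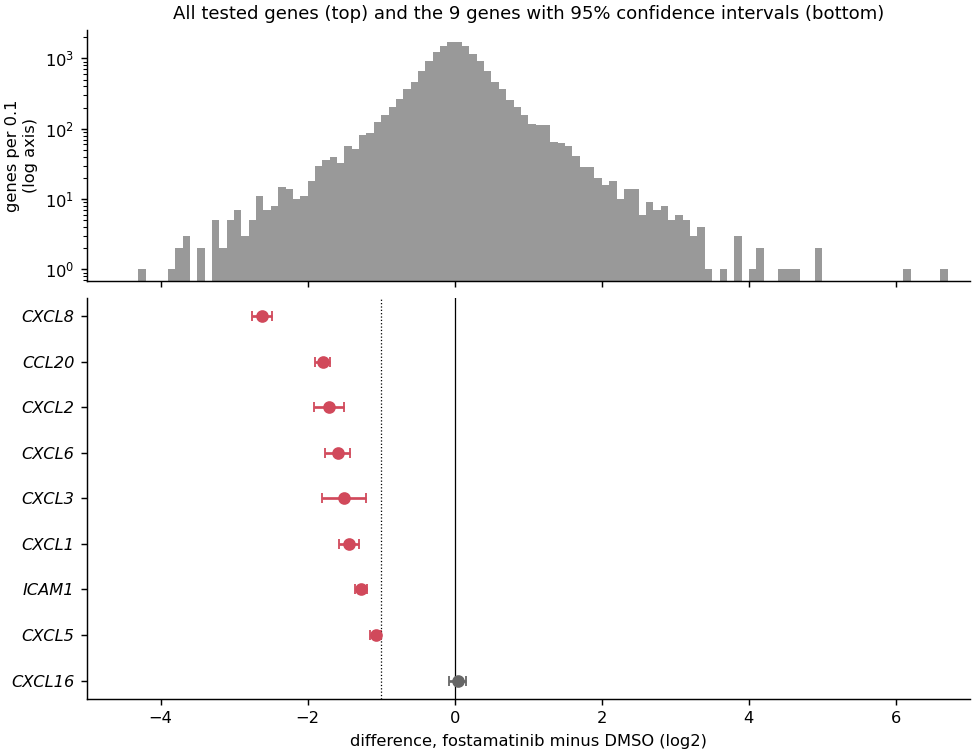
Number of genes per 0.1 of the log2 difference (top, log axis) and the difference of the 9 genes with 95% confidence intervals (bottom), both on the same horizontal axis, with a dotted line at a 2-fold fall. CXCL8 stands furthest out at -2.62, CXCL5 lies at the dotted line with -1.07, and CXCL16 (grey) lies at 0.040.

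Ordered by their difference, the genes ran CXCL8, CCL20, CXCL2, CXCL6, CXCL3, CXCL1, ICAM1, CXCL5 and CXCL16. Each gene was compared with the next through the log2 ratio of both in every sample, 8 comparisons in all. The smallest p that an exact permutation test of 3 samples against 3 allows is 0.10, so none could pass 0.05. Ratios of the groups did not overlap for CXCL8 against CCL20 (-0.82, SE 0.093), ICAM1 against CXCL5 (-0.20, SE 0.059) and CXCL5 against CXCL16 (-1.11, SE 0.078), each with p = 0.10 in the exact permutation test, two-sided, and 0.267 after adjustment over the 8 pairs. CXCL8 thus fell further than CCL20 in every pairing of samples, and CXCL5 less far than ICAM1. The other 5 neighbours, from CCL20 down to ICAM1, overlapped, with differences between -0.16 and -0.067 and exact permutation p from 0.20 to 0.70. The order within each of these neighbouring pairs is therefore within the spread of the samples. Genes further apart in this run were not compared through ratios. At its ends, the confidence interval of CCL20 (-1.90 to -1.69) lay wholly below that of ICAM1 (-1.35 to -1.20).

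Levels of different genes were compared per length, as log2 RPKM (CPM per kilobase of merged exons). In DMSO the order was CXCL5 at 8.34 ± 0.076 (SD, n = 3), ICAM1 at 7.11 ± 0.042, CCL20 at 6.45 ± 0.042, CXCL1 at 5.95 ± 0.059, CXCL8 at 5.29 ± 0.078, CXCL2 at 4.17 ± 0.083, CXCL16 at 4.14 ± 0.021, CXCL6 at 4.03 ± 0.087 and CXCL3 at 2.07 ± 0.065. CXCL2 overlapped with CXCL16 and CXCL16 with CXCL6, and the other neighbours did not overlap. After fostamatinib, CXCL5 (7.27 ± 0.033), ICAM1 (5.83 ± 0.038) and CCL20 (4.66 ± 0.070) stayed in front, and CCL20 overlapped with CXCL1 (4.52 ± 0.17). CXCL16 (4.18 ± 0.092) then lay above CXCL8 (2.67 ± 0.14), with no overlap, whereas in DMSO it lay below CXCL8. CXCL8, CXCL2 (2.46 ± 0.19) and CXCL6 (2.45 ± 0.065) overlapped after fostamatinib, and CXCL3 remained lowest at 0.57 ± 0.12. With the longest transcript as length, CCL20 (7.38) and ICAM1 (7.33) overlapped in DMSO, and CCL20 (5.58) no longer overlapped with CXCL1 (4.73) after fostamatinib. With that length CXCL6 also moved above CXCL16 in DMSO and above CXCL2 after fostamatinib, in both cases with overlap.

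**Figure D3:**
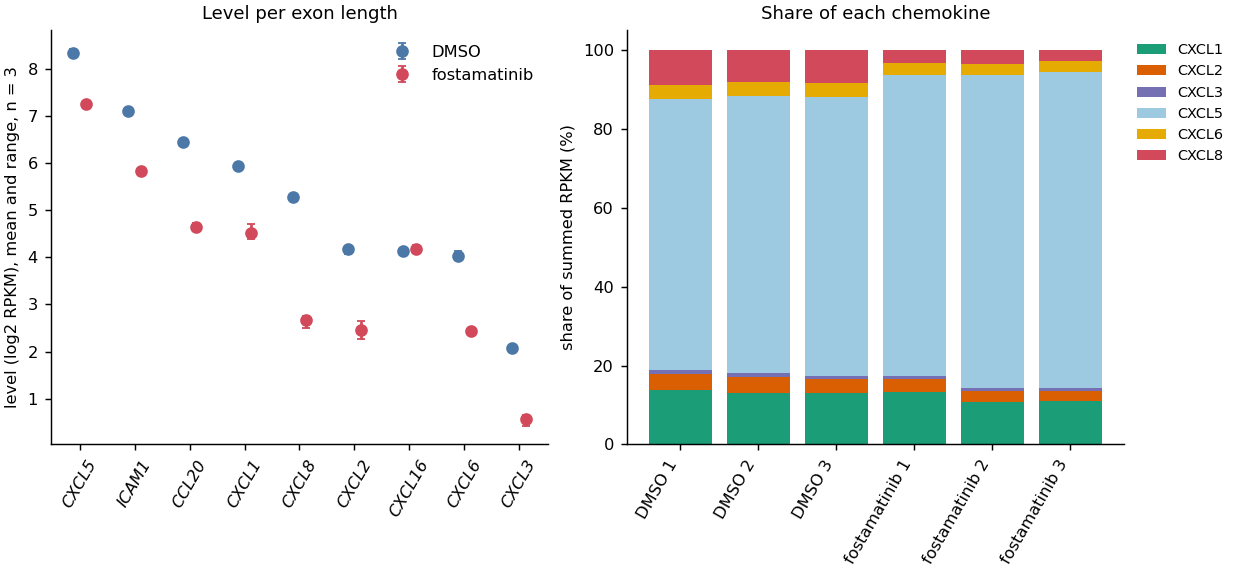
Left, mean level per length in log2 RPKM with the range of the 3 samples for DMSO (blue) and fostamatinib (red). Right, share in percent that each of 6 CXC chemokines took of their summed RPKM in each sample. CXCL5 makes up 69.9% of the sum in DMSO on average and 78.6% after fostamatinib, and the share of CXCL8 shrinks from 8.42% to 3.26%.

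The summed RPKM of the 6 neutrophil-attracting chemokines was 464 ± 19.9 in DMSO and 196 ± 1.73 after fostamatinib (SD, n = 3). CXCL5 supplied 68.9%, 70.2% and 70.6% of the sum with DMSO and 76.4%, 79.3% and 80.2% with fostamatinib, and its share was higher in every fostamatinib sample although its level fell. The share of CXCL8 was 8.88%, 8.08% and 8.29% in DMSO and 3.42%, 3.46% and 2.90% after fostamatinib. CXCL1 supplied 13.3% ± 0.398 and 11.7% ± 1.37, with groups that overlapped, and CXCL2, CXCL6 and CXCL3 each supplied at most 4.18% in any sample.

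The genes CXCL8, CXCL6, CXCL1, CXCL5, CXCL3 and CXCL2, in this order, lie together on chromosome 4 in a span of 358.7 kb, and all 6 fell. Within 0.5 Mb of the outermost of them, 9 further genes were measured. On the side of CXCL8, ALB and AFP, the plasma proteins albumin and alpha-fetoprotein, rose by 0.29 (SE 0.034) and 0.31 (SE 0.033), RASSF6 rose by 0.53 (SE 0.10), AFM rose from 2, 3 and 2 reads to 13, 9 and 18, and ANKRD17 did not pass (0.083, SE 0.048). AFM passed the authors' read filter through the fostamatinib samples alone, so its direction was partly set by that filter. On the side of CXCL2, all 3 genes fell, MTHFD2L by 0.94 (SE 0.17), and the EGF receptor ligands EREG and AREG by 0.79 (SE 0.16) and 0.63 (SE 0.062). Between CXCL1 and CXCL5 lies the platelet chemokine PF4, with 7, 16 and 15 reads in DMSO and 5, 9 and 10 after fostamatinib, which did not pass (-0.51, SE 0.41). Each of these neighbours had a smaller fall than each of the 6 chemokines, although the 95% interval of MTHFD2L, from -1.29 to -0.60, covered the value of CXCL5.

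**Figure D4:**
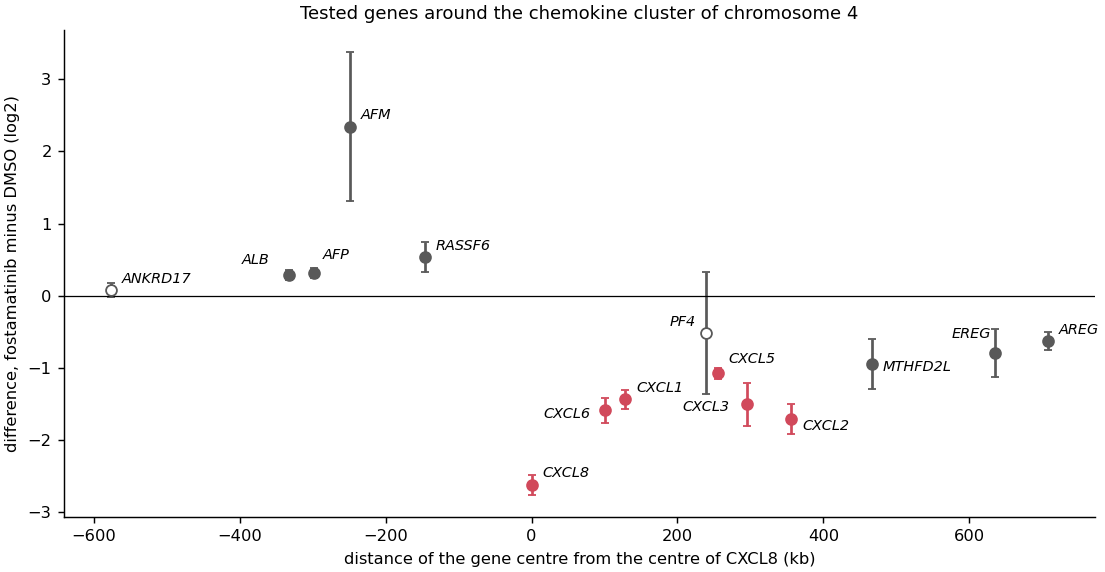
Difference on the log2 scale with its 95% confidence interval (vertical axis) for the 15 measured genes around the chromosome 4 chemokines against the distance of their centre from that of CXCL8 in kb (horizontal axis). The 6 chemokines (red) lie below every other gene, called genes to the left of CXCL8 (grey) lie above 0 and those to the right of CXCL2 below it, and open circles did not pass the test.

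The 3′ untranslated regions (3′UTRs) differ in AU-rich elements, which were counted as TATTTAT in the canonical GENCODE transcript. CXCL2 held 8 copies, a number that 0.281% of 12445 genes reached, CXCL1 and CXCL8 held 4 (3.52%), CXCL3 and CXCL5 3 (7.23%), ICAM1 2 (15.7%) and CCL20 1 (36.2%). CXCL6 and CXCL16 held none, and of these CXCL6 fell and CXCL16 did not pass. A link between the copies and the differences was not tested. The 30-base stretch of the 3′UTR with the most ATTTA (in capitals) is shown for CXCL2 and CXCL8, with the most copies or the largest fall, and for CXCL6, which fell without a copy of TATTTAT. The stretches begin at bases 140, 644 and 569 of the respective 3′UTR.
CXCL2: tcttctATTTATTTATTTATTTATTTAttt
CXCL8: taacctATTTAttATTTAtgtATTTATTTA
CXCL6: atttccttattcagaatttctaaaaATTTA

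Receptors of the 9 genes were mostly not measured: of 8 listed, CXCR1, CXCR2, CXCR6, CCR6, ACKR1 and ITGB2 were not among the 16305 genes. Of the integrin chains that bind ICAM1, ITGAL rose by 1.22 (SE 0.23), from 16, 38 and 32 reads to 56, 66 and 57, and ITGAM fell by 0.59 (SE 0.13). Of 34 other chemokines, 6 were measured, of which 1 fell, 2 rose and 3 did not pass, with a median difference of 0.26. CXCL10, which is induced by interferon, rose by 1.29 (SE 0.31, adjusted p = 8.31e-04), on few reads, from 11, 8 and 13 to 24, 24 and 26. CX3CL1, a membrane-bound chemokine like CXCL16, rose by 0.63 (SE 0.047), and CCL28 fell by 0.57 (SE 0.12). Of 12 other adhesion molecules, 8 were measured, with 1 lower, 3 higher, 4 not called and a median of 0.28. Among them ICAM4, the gene next to ICAM1, rose by 1.29 (SE 0.23), from 17, 25 and 20 reads to 39, 60 and 46. F11R and ALCAM rose by 0.32 and 0.23, and SELE, called lower, had 5, 3 and 8 reads in DMSO and 3, 0 and 0 after fostamatinib. SELE passed the authors' read filter through the DMSO samples alone, so its direction was partly set by that filter. The fall of the 8 genes was therefore not shared by all measured chemokines and adhesion molecules. These lists stand against 24.5% lower and 23.3% higher calls over all genes.

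All 16 NF-kB factors were measured, and 6 fell, 2 rose and 8 did not pass, with a median of -0.11, where 24.5% of all genes fell and 23.3% rose. TNFAIP3, a feedback inhibitor, fell by 0.84 (SE 0.049), NFKBIZ, a nuclear co-regulator, by 0.77 (SE 0.045), the subunit gene NFKB1 by 0.43 (SE 0.049) and the inhibitor NFKBIA by 0.15 (SE 0.046). NFKB2 and REL, which encode other subunits, rose by 0.64 (SE 0.050) and 0.39 (SE 0.084). Each of these was smaller than the fall of any of the 8 genes. Of 26 inducing cytokines and receptors, 20 were measured, with 9 lower, 6 higher, 5 not called and a median of -0.013. The interleukin-1 genes were among the lower ones. IL1B had 41, 43 and 44 reads in DMSO and 10, 2 and 9 after fostamatinib (-2.69, SE 0.39, adjusted p = 3.78e-07), IL1A had 4, 6 and 14 against 0, 1 and 0 reads, and the receptor chains IL1RAP and IL1R1 fell by 1.18 (SE 0.050) and 0.71 (SE 0.056). TLR3, also called lower, had 5, 6 and 11 reads in DMSO and 2, 3 and 1 after fostamatinib (-1.57, SE 0.61). IL1A and TLR3 passed the authors' read filter through the DMSO samples alone, so their direction was partly set by that filter. TNFRSF1A, a receptor of tumour necrosis factor, fell by 0.53, and IL17RC and TRAF6 rose by 0.65 and 0.35.

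Of the 11 AP-1 and C/EBP factors, all measured, 7 fell, 1 rose and 3 did not pass, with a median of -0.68, the lowest among the lists of other pathway genes. FOSL1 fell by 2.65 (SE 0.15), CEBPD by 1.74 (SE 0.062), FOS by 1.44 (SE 0.22), ATF3 by 1.28 (SE 0.074) and CEBPB by 0.83 (SE 0.053). JUNB and JUN fell by 0.68 and 0.65, and FOSL2 rose by 0.33. FOSB and JUND did not pass, nor did EGR1, a zinc finger factor outside both families that was placed in this list. The 13 mRNA turnover factors were divided, with 8 lower, 3 higher, 2 not called and a median of -0.17. ZFP36 and ZFP36L2, which bind AU-rich elements and promote decay, rose by 0.72 (SE 0.063) and 0.57, whereas their relative ZFP36L1 fell by 0.66 (SE 0.046) and the ribonuclease gene ZC3H12A by 0.49 (SE 0.056). Of the 4 shedding enzyme genes, ADAM17, which cuts many surface proteins, and its partner RHBDF2 fell by 0.57 (SE 0.055) and 0.53 (SE 0.063), and ADAM10 (-0.0087, SE 0.044) and RHBDF1 (0.077) did not pass. Over all 8 lists, 35 of the 80 measured genes fell and 18 rose, with a median of -0.10. Over all genes 24.5% were called lower and 23.3% higher, and the counts of each list stand against these shares.

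**Figure D5:**
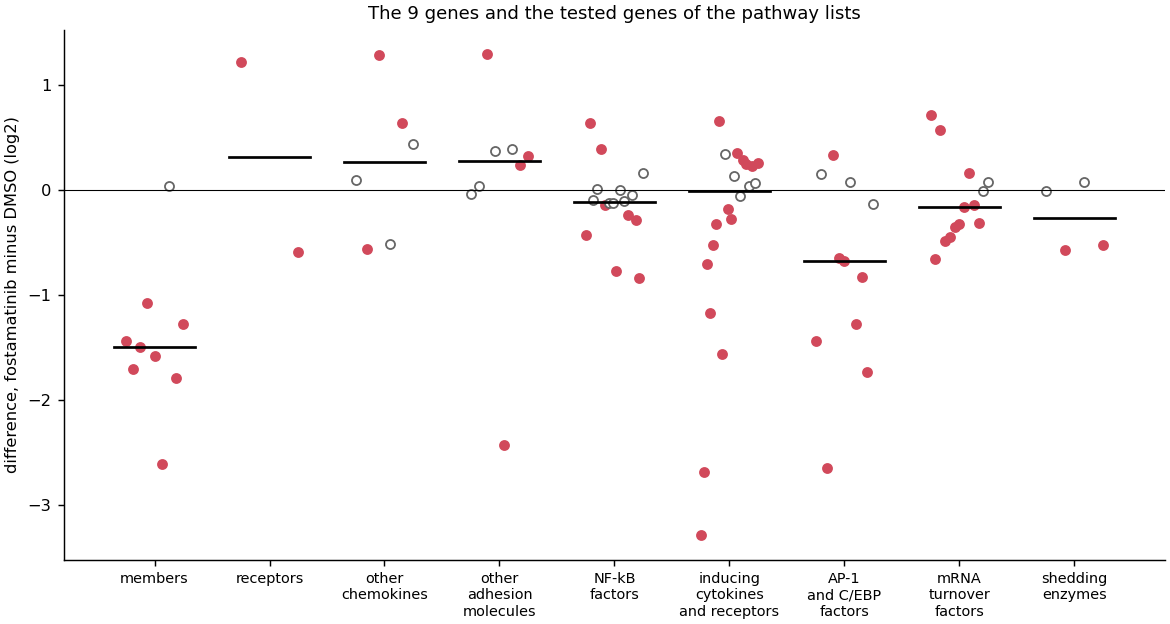
Difference on the log2 scale (vertical axis) of the 9 genes and of each measured gene in the 8 lists of other pathway genes (columns), with filled circles for genes called changed, open circles for those not called and a black line at each median. The 8 chemokine and ICAM1 genes that fell lie below the median of every list, and among the lists the AP-1 and C/EBP factors have the lowest median at -0.68.

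The same 9 bases GGAATTTCC were present in a promoter of 47 other measured genes. Of these, 17 (36.2%) fell and 14 (29.8%) rose, with a median of -0.025. Among all 10467 measured genes with a promoter in the table, 28.8% fell and 25.9% rose. The 7 promoters with the run among the 9 genes belong to genes that all fell by more than 2-fold. The run was chosen after these promoters had been read, and the 9 genes with earlier results known. A link between the run and the fall was not tested.

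The genes whose pattern over the 6 samples lay nearest to each of the 9, by the root mean square difference from their own DMSO means among the 11485 genes that averaged 50 reads or more, came from several families. Nearest to CXCL8 were PSAT1 (0.084), FOSL1 (0.12) and SLC6A9 (0.15), and nearest to CXCL2 were IER3 (0.077), CEBPD (0.093) and CSF1 (0.093). CXCL1 lay nearest to TGFB2 (0.038), COTL1 (0.052) and CCND1 (0.065), and CXCL3 nearest to ABLIM3 (0.083), EPHA2 (0.083) and MCM5 (0.097). These distances are in log2 units and describe likeness in these samples alone. CXCL5 was closest to IL18 (0.027), SLC38A1 (0.029) and SPX (0.042), and CXCL6 to the acute-phase gene SAA2 (0.040), MIR4435-2HG (0.068) and the oncostatin M receptor gene OSMR (0.078). CCL20 was closest to HEG1 (0.042), ADM2 (0.052) and THBS1 (0.053), ICAM1 to SLC1A5 (0.042), BHLHE40 (0.050) and the interferon gamma receptor gene IFNGR1 (0.054), and CXCL16 to SOX12 (0.015), EBP (0.025) and NBPF19 (0.025). None of the 9 was among the 3 nearest genes of another. The distance depends largely on the size of each difference, so this does not show that the 9 genes vary apart from each other.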

How the data were processed

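RNA was sequenced from 3 fostamatinib and 3 DMSO samples of Huh7SR cells (poly(A) selection, NEBNext Ultra II Directional kit, Illumina sequencing). The authors mapped reads to hg19 with HISAT and counted them with featureCounts on GENCODE version 22. The strand setting is not given in the sources used here. A gene was kept by them where either group had 5 or more reads in 2 of its 3 samples, and TMM scaling followed. The deposited values are log2 CPM, made by the authors from the read count plus 0.5 and the TMM-scaled library size. This prior count understates differences of genes with few reads, and the filter sets which genes could be tested.

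Here, limma 3.58.1 in R 4.3.3 (lmFit, eBayes with a trend, treatment as the only term, Benjamini-Hochberg adjustment over 16305 genes) was applied to these values. Because the spread is pooled over genes (33.9 total and 4 residual degrees of freedom, median), very small adjusted p-values rest on that pooling. The largest adjusted p of the 8 called genes without the trend was 0.000599, for CXCL1. Whole reads were recovered within 0.05 and used for depth and for other scalings. An identical row of 1 ribosomal RNA gene, repeated 6 times, was dropped. Python 3.11.15 was used with scipy 1.17.1, pandas 2.3.3, numpy 2.4.6 and matplotlib 3.10.9. Scripts were tested on simulated data. Genomic positions are from GRCh37 with lifted GENCODE version 44 (hg19 is this build), which held 98.7% of the identifiers.

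The 9 genes and the lists of receptors, other chemokines, other adhesion molecules, NF-kB factors, inducing cytokines and receptors, AP-1 and C/EBP factors, mRNA turnover factors, shedding enzymes and cell type markers were chosen with earlier results of these data known. Named are the 9 genes, measured genes of these lists, measured genes within 0.5 Mb of the chromosome 4 chemokines, and the 3 genes of nearest pattern to each of the 9. MED11, ZMYND15, PPBPP1 and ICAM4-AS1 were added after their overlap with the 9 was seen. Alternatives were limma-voom, no trend, 2 other scalings, another prior count, a filter of 10 reads in every sample, a replicate block, omission of each sample, stricter thresholds, summed similar genes and another gene length.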

Additional observations from a re-analysis of the deposited data

How the results depend on the processing

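Of 140 values of the 9 differences under other settings, 138 kept their direction and their side of the threshold. The exceptions were CXCL16, which turned to -0.0081 without fostamatinib sample 1 (range with each sample left out -0.0081 to 0.084), and CXCL5, which no longer passed the test against a 2-fold change (adjusted p = 0.879). With each sample left out in turn, 8 of the 9 genes were called lower and 0 higher in every fit, and 6958 to 7480 genes were called in all (3634 to 3804 lower, 3306 to 3676 higher). In the same fits 30 to 35 genes of the pathway lists were lower and 17 to 19 higher, and 9 genes around the chromosome 4 chemokines were lower and 4 to 5 higher. Against a 2-fold change, 295 genes were called (151 lower, 144 higher), with 5 of the pathway lists lower and 0 higher, and 5 around the chemokines lower and 0 higher. A threshold of 1 expected false positive left 4136 genes (2244 lower, 1892 higher) and, of the pathway lists, 24 lower and 11 higher genes. These thresholds are stricter by construction. The settings for the genes around the chemokines and a prior count of 2 for the ratios between genes were chosen after seeing the data. Samples of the 2 groups share replicate numbers, but their deviations correlated by only 0.028, -0.019 and 0.013, which gave no sign of pairing. The labels do not say how the replicates were made, and a small shared effect could go unseen with 3 samples per group. A fit with a replicate block called 7977 genes (4098 lower, 3879 higher), and the 8 genes called lower remained called. A run without any filter was not made, since the files are already filtered. Depth limits CXCL3 most among the 9, with 39 to 49 reads after fostamatinib. It also limits the differences of IL1A, TLR3, SELE, AFM and PF4, which had under 20 reads in every sample. CXCL10, ICAM4 and ITGAL also rested on few reads. The read filter was passed by IL1A, TLR3, SELE and the marker CD14, which was not called, through the DMSO samples alone. AFM passed it through the fostamatinib samples alone.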
